A study of Homo sapiens with 8 samples.

Results

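The 10 genes described here encode integrin subunits, namely the alpha subunits ITGA2, ITGA3, ITGA5, ITGA6 and ITGAV and the beta subunits ITGB1, ITGB3, ITGB4, ITGB5 and ITGB8. They were chosen by name, as were the gene lists used below, with earlier results of these data known. The 10 genes were matched by symbol to the Ensembl IDs of the count tables. There they are 10 of 58688 genes and 10 of the 26 integrin subunit genes in the annotation. In the tables ITGA2 is ENSG00000164171.7, ITGA3 is ENSG00000005884.14, ITGA5 is ENSG00000161638.7, ITGA6 is ENSG00000091409.11, ITGAV is ENSG00000138448.8, ITGB1 is ENSG00000150093.15, ITGB3 is ENSG00000259207.4, ITGB4 is ENSG00000132470.10, ITGB5 is ENSG00000082781.8 and ITGB8 is ENSG00000105855.6, and positions below are those of GENCODE on GRCh38 and span the whole gene, with counts over its exons. RNA was sequenced from LM2, a human triple negative breast cancer line selected for lung metastasis from MDA-MB-231. The 4 samples of the drug experiment were 2 treated with DMSO, the solvent, and 2 treated with Ponatinib, a tyrosine kinase inhibitor that acts on ABL and other kinases, at 1 µmol/L for 6 h. The 4 samples of the knockdown experiment were 1 each of cells carrying scrambled shRNA, ABL1 shRNA, ABL2 shRNA and both ABL1 and ABL2 shRNA. ABL1 and ABL2 are related non-receptor tyrosine kinases that act downstream of integrins. The comparisons address what the drug and a partial knockdown of ABL1 and ABL2 do to gene expression. The shRNAs were delivered by lentivirus with a single hairpin per gene, all shRNA cells including the scrambled control passed through infection and puromycin selection, and the labels do not say whether the repeat samples were separate cultures, so p-values measure only the spread between these samples, which may be technical.

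Integrins are cell surface receptors made of an alpha and a beta chain, and the pair decides which matrix protein is bound. The alpha 2, alpha 3 and alpha 5 chains pair with beta 1 and bind collagen, laminin and fibronectin, respectively. The alpha 6 chain pairs with beta 1 or beta 4 and binds laminin, and alpha 6 beta 4 anchors hemidesmosomes, whereas the alpha V chain pairs with beta 1, beta 3, beta 5, beta 6 or beta 8 to bind vitronectin, fibronectin or latent TGF-beta. In breast cancer cells these receptors are known for roles in migration, invasion and survival.

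Start regions of 3 of the genes are printed because these genes behaved differently. ITGA2 changed in all comparisons below, ITGA5 held letters that match both motifs searched, and ITGB1 passed the test in none of the comparisons with DMSO or scrambled shRNA. Each window runs from 250 bases before to 20 bases after the start of transcription on GRCh38.p14, written 5′ to 3′ along the gene, with sequence and start taken from RefSeq, whose table held windows for 7 of the 10 genes. Entries for ITGA3, ITGB3 and ITGB4 were not used. ITGA2 lies on the plus strand with its window at chr5:52989102-52989371, ITGA5 on the minus strand at chr12:54419247-54419516 and ITGB1 on the minus strand at chr10:32958211-32958480. Capitals mark TGANTCA, the letters bound by AP-1 (the family of c-Jun), and GGAATG, the letters bound by TEAD factors, each searched on both strands and not overlapping each other here.
ITGA2: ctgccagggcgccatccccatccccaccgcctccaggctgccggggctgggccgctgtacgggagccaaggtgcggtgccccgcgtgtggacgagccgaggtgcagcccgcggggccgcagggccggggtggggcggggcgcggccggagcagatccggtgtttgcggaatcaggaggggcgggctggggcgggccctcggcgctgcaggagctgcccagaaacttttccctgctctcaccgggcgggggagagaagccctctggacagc
ITGA5: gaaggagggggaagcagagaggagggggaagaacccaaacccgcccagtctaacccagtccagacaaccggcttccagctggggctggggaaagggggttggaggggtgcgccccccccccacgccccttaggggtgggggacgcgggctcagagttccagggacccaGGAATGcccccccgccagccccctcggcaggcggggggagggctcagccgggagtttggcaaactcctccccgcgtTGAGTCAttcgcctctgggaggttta
ITGB1: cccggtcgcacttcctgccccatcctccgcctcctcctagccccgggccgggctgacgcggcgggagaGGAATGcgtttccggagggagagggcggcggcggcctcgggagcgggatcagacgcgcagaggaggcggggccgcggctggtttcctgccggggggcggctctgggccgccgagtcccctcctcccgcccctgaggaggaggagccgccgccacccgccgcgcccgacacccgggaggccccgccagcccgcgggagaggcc
TGANTCA was found in 1 of the 12 windows of the 7 genes (the ITGA5 window above, beginning 6 bases before the start) and in 7.12% of 35116 RefSeq windows of 270 bases. GGAATG was found in 2 of the 12 (ITGA5 and ITGB1) and in 12.9% of all windows. Such matches describe the letters only.

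Total counts on genes ranged from 7568934 to 13010896 per sample, so that a count of 3 corresponds to 0.2306 to 0.3964 CPM (a gene's count scaled to a fixed total), and intervals on single samples below are exact 95% Poisson intervals that cover counting error only. ABL1 had 188.7 normalized CPM in the scrambled sample and 72.30, 201.2 and 108.6 in the ABL1 shRNA, ABL2 shRNA and combined samples, and ABL2 had 234.8, 211.2, 92.87 and 146.7 in the same order, so each targeted mRNA was lowest in the sample of its own single shRNA. ABL2 had 335.3 and 306.0 normalized CPM with DMSO and 147.7 and 169.2 with Ponatinib, a fall of 50.8% (edgeR adjusted p = 8.6e-08), beside 37.5% in the combined knockdown, while ABL1 rose by 14.4% with Ponatinib (edgeR adjusted p = 0.029). VIM, a mesenchymal marker, had 1864 to 3145 normalized CPM, CDH1, an epithelial marker, had at most 1.762, and PGR had 0 counts in all 8 samples, while ERBB2 had 53.73 to 67.03. The shRNA samples and the drug samples stand apart, in that 68 genes counted 100 times or more in each of the drug samples had 0 counts in each of the shRNA samples. PECAM1, an endothelial marker, had 2.343 to 3.993 normalized CPM in the drug samples and 20.37 to 39.37 in the shRNA samples, while CDH5, which defines that cell type, had at most 3 counts in any sample. Differences were therefore formed within each experiment. The knockdown tests still took their spread from the drug samples, and the changes with Ponatinib and with both shRNAs were also tested against each other. Among the shRNA samples, the scrambled sample differed by over 2-fold from all 3 others at 138 genes, against 13, 38 and 3 genes for the ABL1 shRNA, ABL2 shRNA and combined samples.

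Levels of different genes were compared as CPM per kb of annotated exon. In DMSO cells ITGA3 was the most abundant alpha subunit at 133.1 ± 0.894 CPM per kb (SD, n = 2), which was 53.10% of the alpha total. ITGA6 followed at 53.74 ± 1.054 (SD, n = 2), ITGA2 at 31.07 ± 0.773, ITGA5 at 17.93 ± 0.836 and ITGAV at 6.312 ± 0.244. The ranges of neighbours in this order did not overlap. Of the beta subunits, ITGB1 was the most abundant at 70.21 ± 2.834 CPM per kb (SD, n = 2), or 56.41% of the beta total. ITGB4 at 27.39 ± 2.835 and ITGB5 at 21.65 ± 0.693 came next, and their order depends on the exon length used, since with the longest transcript they had 31.40 ± 3.251 and 31.78 ± 1.018. ITGB3 at 0.301 ± 0.048 and ITGB8 at 0.203 ± 0.019 were far lower, with only 21 to 33 counts per DMSO sample behind each. The 5 alpha members held 96.53% to 96.62% of the alpha total in the DMSO samples and the 5 beta members 96.14% to 96.25% of the beta total. The shares rest on the length used, since the annotated exons of ITGB1 span 14561 bases against 5614 in its longest transcript and those of ITGAV 19336 against 7951. In the ABL1 shRNA and combined samples the order itself turned, as ITGB4 held 49.32% and 49.68% of the beta total over all exons, above the 36.26% and 34.66% of ITGB1, but 32.89% and 33.53% with the longest transcript, below the 54.70% and 52.91% of ITGB1.

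**Figure D1:**
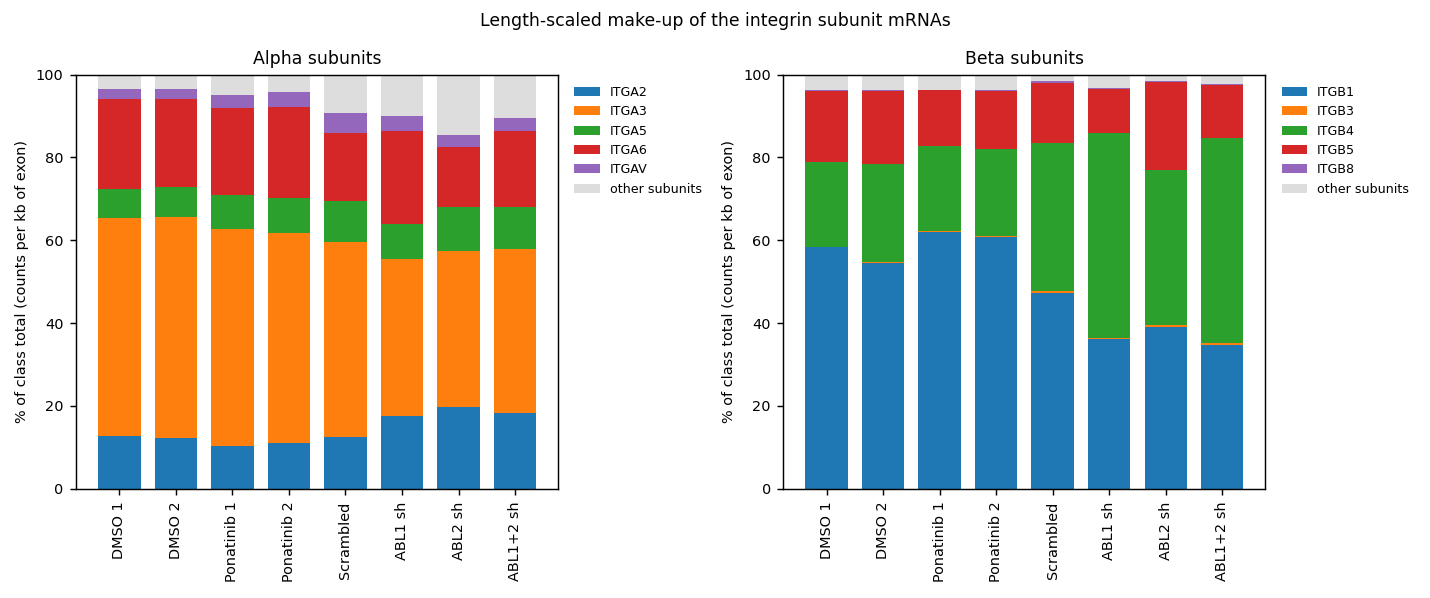
Stacked bars give each subunit's percent of all alpha (left) or beta (right) integrin counts per kb of exon in each of the 8 samples, with the other subunits in grey. ITGA3 and ITGB1 fill 53.10% and 56.41% of their class in the DMSO mean, and ITGB4 holds 49.32% and 49.68% of the beta total in the ABL1 shRNA and combined samples, which is 32.89% and 33.53% with the longest transcript as length.

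After Ponatinib, 4 of the 10 subunits changed and all 4 fell, ITGA2, ITGA3, ITGA6 and ITGB5, by 19.8% to 31.1%. The calls are those of edgeR's quasi-likelihood test at a Benjamini-Hochberg adjusted p under 0.05 over 16031 genes, of which 30.7% were called, 15% higher and 15.7% lower, so the share of subunits called was near the background. Fewer subunits were called without DMSO replicate 1. More were called without Ponatinib replicate 1 (ITGAV then called higher) or Ponatinib replicate 2 (ITGA5 and ITGB4 then called lower). The number of all genes called moved the same way in each of these fits, so these shifts were not particular to the subunits. The median log2 fold change of the 10 subunits was -0.25, beside -0.005 for all genes tested. At the study's own rule (fold change over 2 and unadjusted p under 0.05), 0 subunits passed. In the fit made here these thresholds called 5.48% of genes. For Ponatinib and for the combined knockdown they called more genes here than the paper lists, and the cause was not tested. The Ponatinib and DMSO samples did not overlap for 7 subunits, 6 of them lower and 1 higher with Ponatinib, where 64.9% of all genes tested had no overlap (32.8% lower and 32.1% higher).

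**Figure D2:**
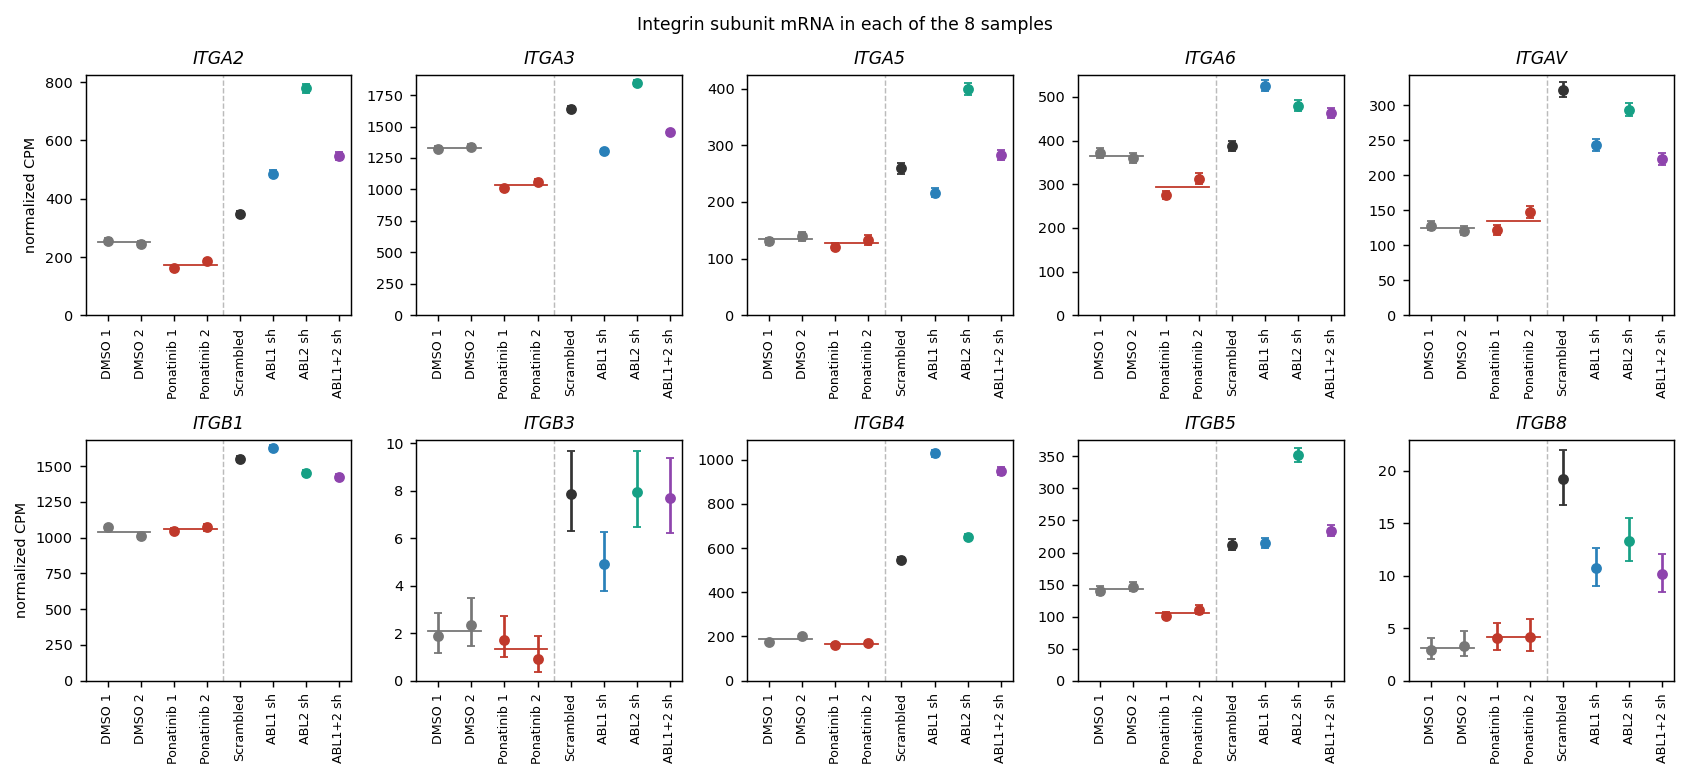
Points give normalized CPM of each subunit in each sample on axes that start at 0, with exact 95% Poisson intervals, short lines the means of the DMSO and Ponatinib pairs, and the dashed line parts the drug from the knockdown experiment, whose values were scaled in separate fits. Ponatinib lowered ITGA2, ITGA3, ITGA6 and ITGB5, and ITGA2 was highest, at 778.6, with ABL2 shRNA.

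**Figure D3:**
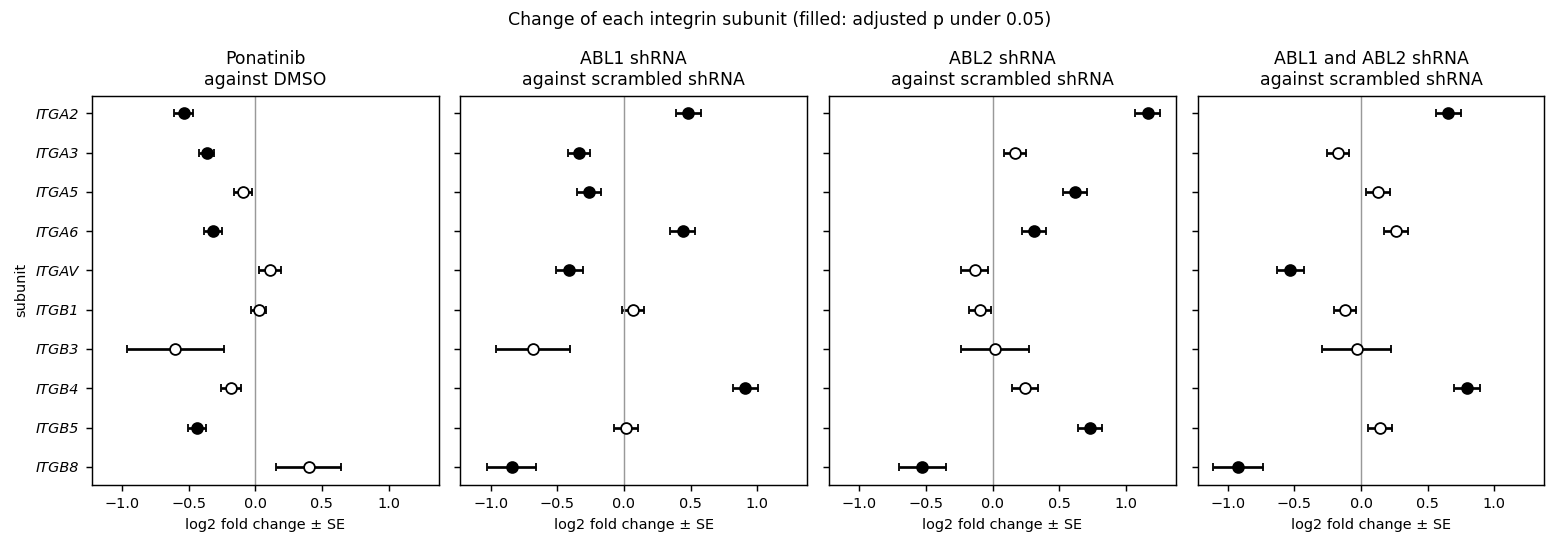
Points give the log2 fold change of each subunit with its standard error in 4 comparisons, filled where the edgeR adjusted p was under 0.05. ITGA2 lies at -0.54 with Ponatinib and at 0.48, 1.16 and 0.65 in the 3 knockdowns, whose spread was taken from the drug experiment's pairs.

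Among the partners of beta 1, ITGA2, the collagen receptor chain (chromosome 5, 52989340 to 53094779), had 254.3 and 245.3 normalized CPM in the DMSO samples and 160.6 and 184.6 in the Ponatinib samples. Both Ponatinib samples were below both DMSO samples. The log2 fold change was -0.54 (SE 0.071, edgeR adjusted p = 3.9e-05), the steepest among the 4 that passed. ITGA3, the laminin-332 receptor chain and the most abundant alpha subunit (chromosome 17, 50055968 to 50090481), had 1323 and 1335 normalized CPM with DMSO and 1010 and 1057 with Ponatinib. Its replicates lay close together and the groups did not overlap, with a log2 fold change of -0.36 (SE 0.056, edgeR adjusted p = 1.6e-04). ITGA5, the fibronectin receptor chain (chromosome 12, 54395261 to 54419266), had 130.4 and 139.2 normalized CPM with DMSO and 120.8 and 132.5 with Ponatinib. These groups overlapped, and the log2 fold change of -0.09 (SE 0.069) did not pass (edgeR adjusted p = 0.35).

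ITGB1, the common partner of these chains (chromosome 10, 32887273 to 33005792), had 1071 and 1011 normalized CPM with DMSO and 1048 and 1072 with Ponatinib. The groups overlapped and the log2 fold change was 0.03 (SE 0.057, edgeR adjusted p = 0.77). Set against ITGB1, the summed counts per kb of the alpha chains that pair with it alone (ITGA1, ITGA2, ITGA3, ITGA5 and ITGA10) were 2.562 and 2.738 times its own in the DMSO samples and 1.997 and 2.083 times in the Ponatinib samples. With the longest transcript as length these ratios were lower, 1.601 and 1.716 against 1.260 and 1.306, and the Ponatinib samples were again below both DMSO samples. ITGB1P1, a processed pseudogene of near-identical sequence, was listed with 100.8 to 131.3 normalized CPM, so a part of the ITGB1 reads may be counted there or the reverse, and ITGB1 is uncertain to that extent.

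ITGA6 and ITGB4 form the laminin receptor of hemidesmosomes. ITGA6 (chromosome 2, 172427354 to 172506459) had 370.7 and 360.2 normalized CPM with DMSO and 275.1 and 312.4 with Ponatinib, a log2 fold change of -0.32 (SE 0.067, edgeR adjusted p = 0.0023). Both Ponatinib samples were lower, but they differed from each other more than the DMSO samples did, and without DMSO replicate 1 the call was lost (edgeR adjusted p = 0.053). ITGB4 (chromosome 17, 75721328 to 75757818) had 174.8 and 202.2 normalized CPM with DMSO and 161.1 and 171.7 with Ponatinib. The groups lay side by side without overlap, and the log2 fold change of -0.18 (SE 0.074) did not pass (edgeR adjusted p = 0.079). The ratio of ITGB4 to ITGA6 per kb was 0.466 and 0.555 in the DMSO samples and 0.578 and 0.543 in the Ponatinib samples, which overlap.

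Of the alpha V group, ITGB5, a vitronectin receptor chain (chromosome 3, 124761948 to 124901418), had 140.5 and 146.8 normalized CPM with DMSO and 101.4 and 111.0 with Ponatinib. It was lower in both Ponatinib samples, with a log2 fold change of -0.44 (SE 0.068, edgeR adjusted p = 1.9e-04). ITGAV itself (chromosome 2, 186590010 to 186680901) had 127.7 and 120.8 normalized CPM with DMSO and 121.9 and 147.3 with Ponatinib. The Ponatinib samples straddled a DMSO sample, and the log2 fold change of 0.11 (SE 0.082) did not pass (edgeR adjusted p = 0.35). ITGB3 (chromosome 17, 47253827 to 47313743) had 21 and 23 counts with DMSO and 18 and 7 with Ponatinib, and ITGB8 (chromosome 7, 20330702 to 20415754) had 33 and 33 against 43 and 32. At these counts the standard errors were 0.366 for ITGB3 and 0.241 for ITGB8 (log2 fold changes -0.60 and 0.40, edgeR adjusted p = 0.24 and 0.23). A change of the size seen in ITGB5 was thus not detectable for either gene. The summed beta 3, beta 5 and beta 8 counts per kb were 3.334 and 3.697 times those of ITGAV in the DMSO samples and 2.553 and 2.290 times in the Ponatinib samples. With the longest transcript they were 2.009 and 2.227 against 1.539 and 1.383.

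**Figure D4:**
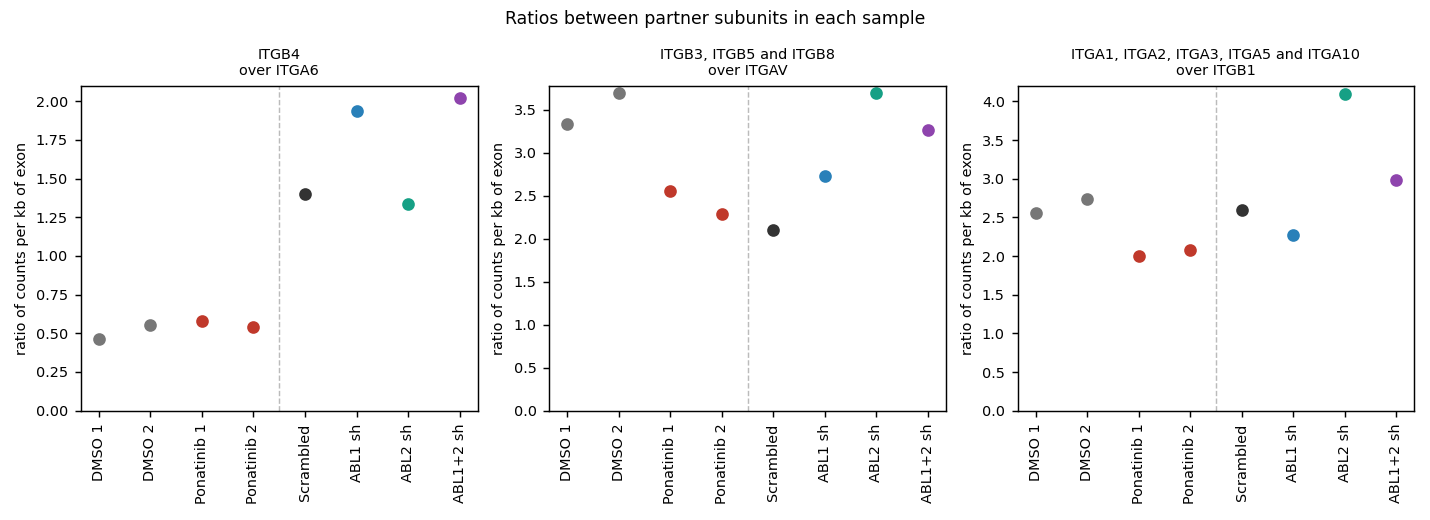
Points give, for each sample, the ratio of summed counts per kb of exon between subunits that pair with each other, over all annotated exons, on axes that start at 0. With Ponatinib the ratios to ITGAV and ITGB1 lie below both DMSO samples, and ITGB4 over ITGA6 is highest in the ABL1 shRNA and combined samples at 1.935 and 2.022.

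ITGA2, which fell with Ponatinib, was higher in all 3 knockdowns, ITGB4 was higher in the samples that carried ABL1 shRNA, and ITGB8 was lower in all 3. Because each shRNA group is 1 sample, the spread was taken from the drug experiment's pairs (common biological coefficient of variation 0.046), and the knockdown differences have no replicate check. If a coefficient of variation of 0.2 is assumed in place of that spread, 0 subunits passed in any knockdown, so the calls below hold only if separate shRNA lines vary as little as the drug samples. The 3 comparisons also share the scrambled sample, and a value that is extreme there moves all 3. With ABL1 shRNA 7 of the 10 subunits were called, 3 higher and 4 lower, where 22% of 18275 genes were called (10.6% higher and 11.4% lower). For ABL2 shRNA the count was 5, 4 higher and 1 lower, where 15.6% of genes were called (7.89% higher and 7.68% lower). For both shRNAs it was 4, 2 higher and 2 lower, where 17.8% were called (8.43% higher and 9.42% lower). The median log2 fold changes of the 10 subunits were -0.12, 0.21 and 0.05, beside 0.000 for all genes in each knockdown. By size alone, 3 subunits were past 1.5-fold in each knockdown. The shares of all genes past 1.5-fold were 24.7% (12.8% higher and 11.9% lower) with ABL1 shRNA, 21.2% (12% and 9.19%) with ABL2 shRNA and 22.7% (12.3% and 10.3%) with both. The study's rule was passed by ITGA2 with ABL2 shRNA and by no other subunit, where it called 5.68%, 4.99% and 4.71% of genes in the 3 knockdowns. Because the spread came from the drug samples, leaving those out moved the calls. Fewer subunits were called for ABL2 shRNA without either DMSO sample and more for both shRNAs without either Ponatinib sample, as for all genes.

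ITGA2 had 347.5 normalized CPM in the scrambled sample (95% interval 336.8 to 358.5), 485.9 in the ABL1 shRNA sample, 778.6 in the ABL2 shRNA sample and 547.2 in the combined sample. The scrambled sample was the lowest and ABL2 shRNA the highest, at 2.24 times scrambled. The log2 fold changes were 0.48 (SE 0.093), 1.16 (SE 0.093) and 0.65 (SE 0.093), with edgeR adjusted p of 7.4e-04, 4.2e-08 and 4.6e-05. ITGA5 had 259.1, 216.2, 398.8 and 282.8 normalized CPM in the same order. It was called lower with ABL1 shRNA (log2 fold change -0.26, edgeR adjusted p = 0.046, lost without either DMSO sample) and higher with ABL2 shRNA (0.62, edgeR adjusted p = 5.5e-05), and with both shRNAs the value of 0.13 did not pass. ITGA3 had 1642, 1302, 1845 and 1455 normalized CPM in the same order and passed only with ABL1 shRNA, where it was lower (log2 fold change -0.34, SE 0.081, edgeR adjusted p = 0.0049, lost without DMSO replicate 2). ITGB1 had 1550, 1627, 1452 and 1424 normalized CPM and log2 fold changes of 0.07, -0.09 and -0.12, each with SE 0.082, none of which passed. The alpha chains that pair with beta 1 alone summed to 2.594 times ITGB1 per kb in the scrambled sample and 2.278, 4.098 and 2.984 times in the ABL1 shRNA, ABL2 shRNA and combined samples.

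ITGB4 had 546.5 normalized CPM in the scrambled sample, 1028 in the ABL1 shRNA sample, 648.0 in the ABL2 shRNA sample and 947.5 in the combined sample. The samples carrying ABL1 shRNA were the highest, with log2 fold changes of 0.91 (SE 0.096, edgeR adjusted p = 1.0e-06) for ABL1 shRNA and 0.79 (SE 0.096, edgeR adjusted p = 7.1e-06) for both, whereas the 0.25 of ABL2 shRNA did not pass (edgeR adjusted p = 0.094). CDH1, an epithelial marker, moved with these values at 4, 23, 2 and 20 counts in that order. The 2 epithelial markers CDH1 and EPCAM summed to 9.528, 9.114, 5.918 and 6.622 normalized CPM in the same samples, so the list as a whole was not higher, and its part in the ITGB4 difference was not tested. ITGA6 had 386.4, 524.8, 480.0 and 462.9 normalized CPM, lowest in the scrambled sample. It was called higher with ABL1 shRNA (log2 fold change 0.44, edgeR adjusted p = 0.0015) and ABL2 shRNA (0.31, edgeR adjusted p = 0.025, lost without either DMSO sample), and the 0.26 with both did not pass (edgeR adjusted p = 0.057). Per kb, ITGB4 was 1.397 times ITGA6 in the scrambled sample and 1.935, 1.334 and 2.022 times in the 3 knockdowns.

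ITGAV had 322.5 normalized CPM in the scrambled sample, 242.9 in the ABL1 shRNA sample, 293.7 in the ABL2 shRNA sample and 223.3 in the combined sample. It was highest in the scrambled sample and called lower with ABL1 shRNA (log2 fold change -0.41, edgeR adjusted p = 0.0055) and with both (-0.53, edgeR adjusted p = 8.5e-04). ITGB5 had 211.9, 214.4, 352.1 and 233.9 normalized CPM, so that ABL2 shRNA alone stood out (log2 fold change 0.73, SE 0.089, edgeR adjusted p = 7.5e-06), while the values of 0.02 and 0.14 did not pass. ITGB8 had 220, 140, 169 and 124 counts in the same order, or 19.23, 10.72, 13.33 and 10.14 normalized CPM. The Poisson interval of the scrambled sample, 16.77 to 21.95, lay above those of the other 3. The log2 fold changes were -0.84 (SE 0.182), -0.53 (SE 0.177) and -0.92 (SE 0.185), with edgeR adjusted p of 0.002, 0.049 (lost without either DMSO sample) and 0.0013. The ABL2 shRNA call was also lost with other scalings, without the filter on low counts and with DESeq2. ITGB3 had 90, 64, 101 and 94 counts and passed in no knockdown.

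Since the scrambled sample was the lowest or the highest of the 4 for ITGA2, ITGA6, ITGB4, ITGB5, ITGAV and ITGB8, the single knockdowns were also set against each other without it, a comparison added after the data were seen. ABL2 shRNA differed from ABL1 shRNA at 5 subunits, where 19.8% of genes were called (10.3% higher and 9.49% lower). ITGA2 (log2 difference 0.68), ITGA3 (0.50), ITGA5 (0.88) and ITGB5 (0.72) were higher with ABL2 shRNA and ITGB4 was lower (-0.66 with SE 0.095), with edgeR adjusted p from 9.6e-07 for ITGA5 to 1.5e-04 for ITGA3. ITGAV (0.27, edgeR adjusted p = 0.062) and ITGB8 (0.31, edgeR adjusted p = 0.28), which were highest in the scrambled sample, did not pass.

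The change with Ponatinib was then tested against the change with both shRNAs, which do not share controls. It differed at 6 of the 10 subunits (median log2 difference of the 10 was -0.41, beside -0.015 for all genes), where 24.5% of genes were called (12% higher and 12.5% lower), and 9.49% passed the study's rule. Relative to the combined knockdown, Ponatinib was lower for ITGA2 (log2 difference -1.21, SE 0.117, edgeR adjusted p = 2.9e-07), ITGB4 (-0.99, SE 0.121, edgeR adjusted p = 5.4e-06), ITGA6 (-0.60, edgeR adjusted p = 6.3e-04) and ITGB5 (-0.60, edgeR adjusted p = 5.9e-04). It was higher for ITGB8 (1.31, SE 0.299, edgeR adjusted p = 0.0029) and ITGAV (0.62, SE 0.128, edgeR adjusted p = 0.0012). Neither ITGB8 nor ITGAV was called after Ponatinib, and the single scrambled sample was the highest shRNA sample for both. The spread of the shRNA samples was again taken from the drug experiment's pairs. ITGA2 was the subunit that passed in each comparison separately with opposite sign, -0.54 and 0.65. ITGA3, ITGA5, ITGB1 and ITGB3 did not pass, with differences of -0.21, -0.23, 0.13 and -0.58. The drug was given for 6 h and the shRNA cells were harvested after infection and puromycin selection. Drug against knockdown and short against longer exposure therefore cannot be told apart. The combined knockdown was also partial, with ABL1 mRNA lower by 42.4% and ABL2 mRNA lower by 37.5% than with scrambled shRNA.

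Levels also differed between the experiments. For 9 of the 10 subunits all 4 shRNA samples lay above all 4 drug samples (ITGA3 was the exception), where 47.5% of the genes tested were apart in this way, 20% above and 27.5% below. These comparisons use 1 scaling of all 8 samples, on which the drug samples' values differ slightly from those given above, which were scaled among the drug samples alone. On it the scrambled sample was 1.04 times the DMSO mean for ITGA6, 1.22 for ITGA3, 1.37 for ITGA2, 1.46 for ITGB5, 1.47 for ITGB1, 1.90 for ITGA5, 2.56 for ITGAV, 2.86 for ITGB4, 3.71 for ITGB3 and 6.07 for ITGB8. ITGA1, another partner of beta 1, had 42.57 to 52.19 normalized CPM in the drug samples and 424.3 to 905.9 in the shRNA samples. Whether reads of the 2 experiments were counted alike is not known, and 68 genes with 100 or more counts in each drug sample had 0 in each shRNA sample. Infection, selection, counting and other differences between the experiments cannot be told apart.

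Of the 16 other integrin subunits, 4 had enough counts to be tested after Ponatinib, and 0 passed by edgeR or by DESeq2 (0 also had an unadjusted p under 0.05 by edgeR), namely ITGA1 at a log2 fold change of 0.14, ITGA10 at 0.10, ITGAE at 0.11 and ITGB2 at -0.15. In the knockdowns ITGA1 was higher with ABL2 shRNA (log2 fold change 1.09, edgeR adjusted p = 6.7e-08). ITGA10, a collagen receptor chain, was higher with ABL2 shRNA (1.52, edgeR adjusted p = 9.2e-09) and with both (0.75, edgeR adjusted p = 7.3e-05). ITGB2, the beta chain of leukocyte integrins, was higher with ABL1 shRNA (1.67, edgeR adjusted p = 9.4e-09) and with both (1.02, edgeR adjusted p = 8.9e-06), while the leukocyte markers PTPRC and CD3E had at most 3 counts in any sample. CD14, also a leukocyte marker, had 2.797 normalized CPM with scrambled shRNA and 6.587, 5.602 and 7.112 in the knockdowns, and its part in the ITGB2 difference was not tested.

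Of the 6 hemidesmosome partners of ITGA6 and ITGB4, 6 were called after Ponatinib, 1 higher and 5 lower, where 30.7% of all genes were called (15% higher and 15.7% lower), and their median log2 fold change was -0.36. COL17A1, the hemidesmosomal collagen, fell by 0.77 on the log2 scale (edgeR adjusted p = 4.7e-04), LAMB3, the beta chain of laminin-332, fell by 0.56 (edgeR adjusted p = 2.4e-06), and PLEC, the linker to keratin, fell by 0.43 (edgeR adjusted p = 2.5e-04). LAMA3, the alpha chain of laminin-332, rose by 0.23 (edgeR adjusted p = 0.021), though DESeq2 called 0 of these partners higher. Fewer partners were called without either DMSO sample, where the spread came from the Ponatinib pair alone, and fewer of all genes were called too. With both shRNAs, where 17.8% of all genes were called, 4 of the 6 were called, 3 higher, COL17A1 (1.32), LAMB3 (1.05) and PLEC (0.53), and DST lower (-0.39), with a median of 0.39. LAMB3 shows the pattern in single samples, with 686.1 and 698.8 normalized CPM with DMSO, 469.1 and 466.9 with Ponatinib, 280.5 with scrambled shRNA and 602.5, 546.2 and 580.0 in the knockdowns. COL17A1 had 7.605 with scrambled shRNA and 17.00, 19.96 and 18.97 in the knockdowns. For both genes the scrambled sample was the lowest of the shRNA samples. All knockdown differences share it, and whether its value alone made them was not tested. The change with Ponatinib differed from that with both shRNAs for 4 of the 6, all lower, where 24.5% of genes were called (12.5% lower). The differences were -2.11 for COL17A1, -1.63 for LAMB3, -0.98 for PLEC and -0.41 for CD151.

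**Figure D5:**
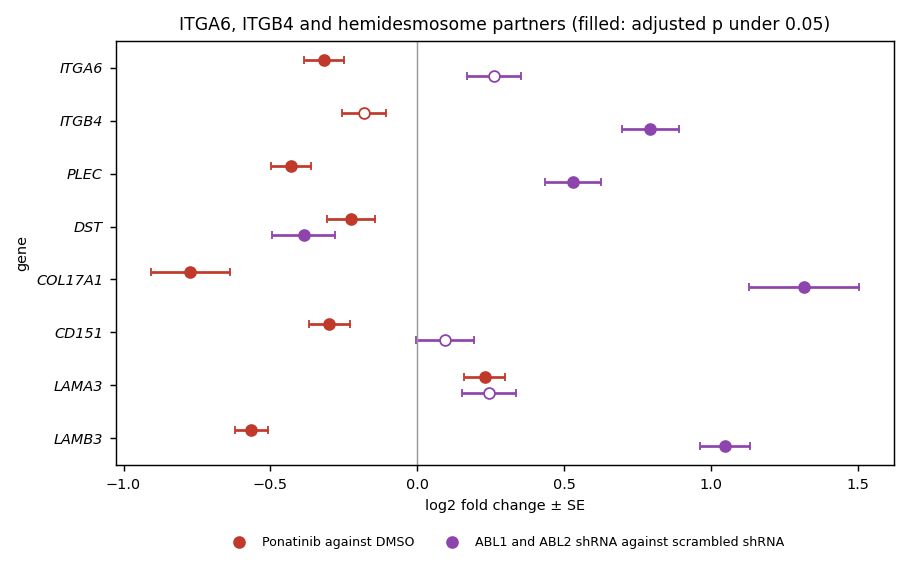
Points give the log2 fold change with its standard error of ITGA6, ITGB4 and 6 hemidesmosome partners after Ponatinib (red) and with both shRNAs (purple), filled where the edgeR adjusted p was under 0.05. COL17A1 lies at -0.77 and 1.32 and LAMB3 at -0.56 and 1.05, while DST is lower in both comparisons and LAMA3 above 0 in both. The purple values rest on the single scrambled sample, the lowest of the shRNA samples for COL17A1 and LAMB3.

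Of 43 tested adaptors and kinases of adhesion complexes, 22 were called after Ponatinib, 3 higher and 19 lower, beside 15% and 15.7% of all genes, with a median log2 fold change of -0.16. PDLIM5, an actin-binding adaptor, fell by 1.11 on the log2 scale (edgeR adjusted p = 2.1e-08), ZYX, the focal adhesion protein zyxin, fell by 0.74 (edgeR adjusted p = 4.8e-07), and TNS4, a tensin, fell by 1.32 (edgeR adjusted p = 0.016). TNS4 had only 42 and 25 counts with DMSO and 18 and 5 with Ponatinib. TLN2 (0.42), TNS3 (0.25) and KANK2 (0.22) rose, though DESeq2 called 0 of the list higher. Fewer of the list were called without DMSO replicate 1, as was so for all genes. With both shRNAs 16 were called, beside 17.8% of all genes, 6 higher and 10 lower, the highest being PTK2B (0.95), FERMT1 (0.82) and LPXN (0.64) and the lowest NEDD9 (-1.64), PDLIM5 (-0.78) and TNS3 (-0.78). NEDD9, a docking protein of integrin signaling, had 17.83 normalized CPM with scrambled shRNA and 6.740, 4.655 and 5.722 in the knockdowns.

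Of 25 tested regulators and membrane partners of integrins, 12 were called after Ponatinib, 3 higher and 9 lower, beside 15% and 15.7% of all genes, with a median of -0.07. PLAUR, the urokinase receptor, had 126.0 and 128.7 normalized CPM with DMSO and 33.85 and 29.15 with Ponatinib. It fell by 2.00 on the log2 scale (edgeR adjusted p = 1.2e-10), a larger log2 fold change than that of any member. CD82, a tetraspanin, fell by 0.65 (edgeR adjusted p = 4.2e-05) and DOK1, an adaptor, fell by 0.53 (edgeR adjusted p = 0.012). SLC3A2, the CD98 heavy chain that binds beta 1 tails, rose by 0.61 (edgeR adjusted p = 1.6e-06), and RAB11FIP1 (0.51) and CD47 (0.23) rose too. Without either DMSO sample the number called was smaller, as it was for all genes. With both shRNAs 9 were called, 5 higher and 4 lower, beside 17.8% of all genes. CD82 was higher (1.44, edgeR adjusted p = 4.4e-09), as were PLAUR (0.52) and RAP1A (0.48), and DAB2 (-0.94), CAV1 (-0.87) and SDC4 (-0.45) were lower.

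Of 29 tested integrin ligands, 13 were called after Ponatinib, 8 higher and 5 lower, beside 15% and 15.7% of all genes, with a median of -0.04. CCN2 had 462.0 and 430.7 normalized CPM with DMSO and 63.51 and 53.36 with Ponatinib. This secreted integrin ligand fell by 2.92 on the log2 scale (edgeR adjusted p = 4.8e-12), its relative CCN1 fell by 1.59 (edgeR adjusted p = 5.8e-11) and THBS1, thrombospondin 1, fell by 1.18 (edgeR adjusted p = 3.2e-09). EDIL3 (0.43), FBN1 (0.35) and COL1A1 (0.34) rose. Here too the number called was smaller without either DMSO sample, as it was for all genes. With both shRNAs 19 of 31 were called, beside 17.8% of all genes, 7 higher and 12 lower, with LAMB3, COL4A2 (0.83) and LAMA5 (0.77) the highest and TGFB2 (-1.66) and THBS1 (-1.58) among the lowest. COL3A1 was also called lower, with 42 counts with scrambled shRNA and 3, 7 and 0 counts in the knockdowns. Under a coefficient of variation of 0.2 the combined knockdown had calls for 2 ligands and for 0 genes of the other 3 lists.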

How the data were processed

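RNA-seq of LM2 cells was analysed in 8 samples. Reads had been mapped to hg38 by Bowtie/TopHat, and the authors deposited untransformed gene counts for each sample, made by HTSeq 0.6.0 per the submitters' processing notes, with counting settings not given in the sources used here. The tables of scrambled shRNA and ABL1 shRNA carry swapped condition names in their headers. Labels were followed, with which the ABL1 level goes. Counter summary rows, present in the shRNA files only, were left out (9.48% to 9.9% without a feature and 6.12% to 6.32% ambiguous). Symbols were matched for 54836 of 58688 IDs, with positions and exon lengths from GENCODE on GRCh38.

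Counts were tested in R 4.3.3 by edgeR 4.0.16 (TMM, filterByExpr, prior count 0.125, quasi-likelihood test). The Ponatinib test used the 4 drug samples, and a fit of all 8 gave the knockdown tests. Normalized CPM use the TMM factors of the 4-sample fit for drug samples and of the 8-sample fit for shRNA samples. Figures were drawn with matplotlib. The members and lists were chosen with earlier results of these data known. Named genes are all members, ABL1, ABL2, the other subunits tested after Ponatinib, and per list up to 3 called genes with the highest and 3 with the lowest log2 fold change after Ponatinib and with both shRNAs. ITGB1P1, CD151 and the cell type markers were named besides. Some list and marker genes are not reported here, and counts leave them out.

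The fits were tested on simulated data. Across genes the DMSO pair correlated at r = 0.9966 and the Ponatinib pair at 0.9925, and both pairs differed by more than sampling noise. Alternatives were other scalings, other filters, DESeq2 1.42.0, the replicate block, assumed coefficients of variation, the study's rule, leaving out each drug experiment sample and the longest transcript as length.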

Additional observations from a re-analysis of the deposited data

How the results depend on the processing

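With the study's rule in place of the adjusted p, 0 subunits passed after Ponatinib, 0 with ABL1 shRNA, 1 with ABL2 shRNA (ITGA2) and 0 with both. With assumed coefficients of variation of 0.2 and of 0.4, 0 subunits passed in each knockdown and 0 between the single knockdowns, and with 0.1 the ABL1 shRNA and ABL2 shRNA counts were 2 and 2. DESeq2 called 4 with ABL1 shRNA and 3 with ABL2 shRNA, and 1.5-fold without a test gave 3 and 3. Leaving out a DMSO sample lowered or kept the number of subunits called in each comparison, and leaving out a Ponatinib sample raised or kept it. The number of all genes called fell and rose in the same fits. It was also lower with an assumed coefficient of variation of 0.1 than with the fitted spread. Without a Ponatinib sample the spread comes from the DMSO pair alone, and the lone sample is assumed to vary like it. Values near 0 turned sign for ITGAV after Ponatinib without Ponatinib replicate 2 (range -0.032 to 0.255 over samples left out), ITGB1 after Ponatinib without DMSO replicate 2 (range -0.013 to 0.068) and ITGB3 with both shRNAs under total counts (0.014). With the longest transcript as length, the DMSO shares moved to 8.077% for ITGA2, 61.52% for ITGA3, 15.94% for ITGA6, 3.964% for ITGAV, 71.91% for ITGB1, 0.137% for ITGB3, 12.41% for ITGB4, 12.55% for ITGB5 and 0.135% for ITGB8. Where no construction is named, the cause was not tested.

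DMSO and Ponatinib samples share repeat numbers, and deviations of same-numbered samples were hardly related (r = 0.0144 across genes). With 2 samples per group this cannot tell whether same-numbered samples were paired. The fit with the replicate block called 4 subunits, as did the fit without it, and 4984 genes against 4917. Across all genes DESeq2 called 2820 after Ponatinib against 4917, and 1262, 713 and 954 in the knockdowns against 4015, 2845 and 3261. Total counts in place of TMM gave 2874 higher calls of 4951 after Ponatinib, against 2406 of 4917. Depth limits ITGB3 and ITGB8, with 7 to 43 counts per drug experiment sample.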
